A study of Mus musculus with 22 samples.

Results

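Poly(A) site use was compared between 4T1 cells labelled Pcf11-IPAKO and untreated 4T1 cells, as 4 of the 22 libraries of the series. The members were every poly(A) position listed for these 4 libraries, 311385 positions in all. 4T1 is a mouse mammary carcinoma line that is used as a model of metastatic breast cancer. The Pcf11-IPAKO group (2 libraries) carries a deletion of the intronic poly(A) site of Pcf11. Its genotype label reads only Pcf11-IPAKO, and the labels do not say how the deletion was made or whether the cells are 1 clone. The control group (2 libraries) is labelled untreated, although its description speaks of siPcf11, and no mock-edited line is named, so the steps of editing and the deletion cannot be told apart. All 4 libraries carry the strain label C57BL/6 and were made from total RNA, and no label of theirs names arsenite or 4sU. The strain label is given as found and was not checked against the origin of 4T1. The labels do not state that replicates came from separate cultures, so the p-values cover only how these libraries vary, and that variation may be technical. In bulk RNA, fewer cells with a transcript and less of it per cell cannot be told apart. Libraries of NIH3T3 and C2C12 cells, 2 siPcf11 and 2 control for each line, served for comparison.

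PCF11 is a subunit of the cleavage and polyadenylation machinery, and it also helps RNA polymerase II to stop after the end of a gene. The Pcf11 gene holds a poly(A) site in an early intron, and cutting at that site gives a short transcript in place of the full messenger RNA, which lowers the amount of PCF11 when the factor is plentiful. A deletion of the intronic site removes this feedback. Many mammalian promoters fire in both directions, and the RNA that runs upstream and antisense is usually cut at an early poly(A) site and degraded. The 3′READS method sequences the fragment of RNA next to the poly(A) tail, so that each read marks one RNA end and its strand.

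The tables list positions in mm9 with read counts and no gene names, so results are given by position. Levels of Pcf11 and use of its intronic site, which would check the genotype label, were not analysed here, and neither were markers of 4T1 or of other cell types. The Pcf11-IPAKO libraries held 1925769 and 3923713 reads, against 2215240 and 3752132 reads in controls. Read counts scaled to a common library size are given as CPM. Positions with at least 1 CPM in at least 2 of the 4 libraries are called strong sites, and all others minor positions. There were 31049 strong sites. Strong sites on one strand with gaps of at most 5 kb were chained into 15744 site groups, of which 6517 held 2 or more strong sites.

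The most general difference lay outside strong sites. Reads at minor positions made up 6.28% and 7.04% of the Pcf11-IPAKO libraries, against 2.03% and 2.66% of the control libraries. Both Pcf11-IPAKO libraries stood above both controls. The Pcf11-IPAKO mean was 6.66% ± 0.538, against a control mean of 2.35% ± 0.449 (SD, 2 libraries each; exact two-sided permutation p = 0.333, the smallest that 2 against 2 libraries can give). These reads were spread over many positions with few reads each. At an equal depth of 1925769 reads, minor positions with a read numbered 76961 and 103321 in Pcf11-IPAKO, against 25336 and 41137 in controls. No minor position held more than 26 reads in a Pcf11-IPAKO library or 17 in a control. At that depth, of 205268 minor positions with a read in any library, 11042 had reads in both Pcf11-IPAKO libraries and in neither control, and 2014 had reads in both controls and in neither Pcf11-IPAKO library, counts that move with the number of minor reads itself. When strong sites were defined from the control libraries alone, the share outside them was 9.09% in Pcf11-IPAKO and 3.33% in controls.

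Both Pcf11-IPAKO libraries stood above both controls in every place where minor reads were counted, by factors that differed between places. Within 100 nt of a strong site the share of reads was 0.565% and 0.675% in Pcf11-IPAKO and 0.272% and 0.365% in controls, a ratio of means of 1.95. Inside the span of site groups the ratio was 2.08. Up to 5 kb downstream of the last strong site of a group, minor reads took 0.893% and 0.999% in Pcf11-IPAKO, against 0.338% and 0.432% in controls. Up to 5 kb upstream of the first strong site they took 0.871% and 0.986% in Pcf11-IPAKO, against 0.311% and 0.417% in controls. Downstream and upstream windows had similar ratios of 2.46 and 2.55. Positions that lay near a strong site only on the other strand showed the highest ratio, with 0.561% and 0.585% in Pcf11-IPAKO against 0.104% and 0.143% in controls, 4.64 times as much. Positions farther than 5 kb from any strong site held 2.93% and 3.28% of Pcf11-IPAKO reads and 0.798% and 1.04% of control reads, a ratio of 3.38. The exact p was 0.333 for each of these 6 places.

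**Figure D1:**
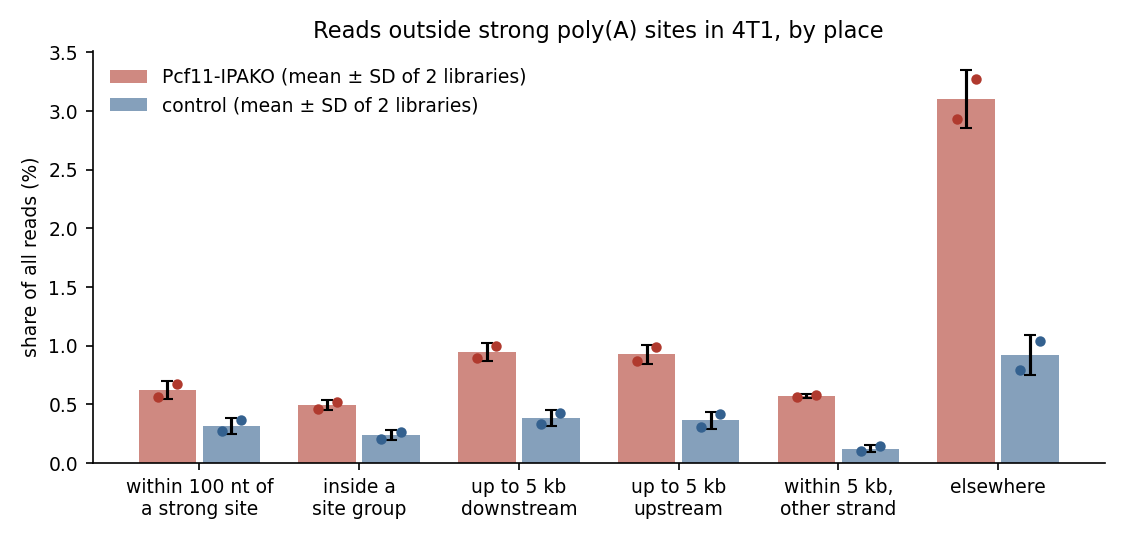
Share of all reads (%) at minor positions in 4T1, by place relative to strong sites; bars are means of 2 libraries, error bars SD, and points single libraries, with Pcf11-IPAKO left of control. In each of the 6 places both Pcf11-IPAKO points lie above both control points, and positions elsewhere hold the most reads (mean 3.10% in Pcf11-IPAKO and 0.919% in controls).

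Distance from strong sites on either strand gave the same picture on a finer scale. Within 1 kb of a strong site, minor reads were 2.26 times as frequent in Pcf11-IPAKO as in controls, and between 1 and 5 kb 2.99 times. From 5 to 20 kb the ratio was 3.58 and from 20 to 50 kb 3.63. Beyond 50 kb from any strong site it was still 2.93, with 8362 and 9569 CPM in Pcf11-IPAKO against 2769 and 3343 CPM in controls. Minor reads were also balanced between strands, with 49.9% and 49.6% on the plus strand in Pcf11-IPAKO and 49.9% and 50.1% in controls. On the 40 strands of the autosomes and the X chromosome the ratio of Pcf11-IPAKO to control ran from 2.31 on a strand of chromosome 8 to 3.57 on a strand of chromosome 15, with a median of 2.86.

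The ratio also varied with the layout of strands. A pair of ends on opposite strands is called diverging here when the plus-strand end lies to the right of the minus-strand end, as the ends of a gene and of an upstream antisense RNA would, and converging when it lies to the left, as the ends of a pair of genes that point at each other would. Minor reads 1 to 2 kb from a strong site in diverging layout came to 2949 and 3059 CPM in Pcf11-IPAKO, against 499 and 659 CPM in controls, a ratio of 5.19. In converging layout at the same distance they came to 1589 and 1640 CPM in Pcf11-IPAKO, against 514 and 696 CPM in controls, a ratio of 2.67. Per kb, the diverging mean in Pcf11-IPAKO was 3386 CPM at 0 to 0.5 kb, 1950 CPM at 0.5 to 1 kb and 3004 CPM at 1 to 2 kb, while the converging mean was 3156, 2123 and 1614 CPM over the same distances. The diverging profile of Pcf11-IPAKO thus had a second peak at 1 to 2 kb and the converging profile had none there. In controls the diverging means per kb were 1012, 511 and 579 CPM. With strong sites defined from the control libraries alone, this peak was absent. The diverging mean per kb in Pcf11-IPAKO was then 1948 CPM at 0 to 0.5 kb and 983 CPM at 0.5 to 1 kb. It was 1036 CPM at 1 to 2 kb and 1135 CPM at 2 to 3 kb. The ratios at 1 to 2 kb were then 3.35 in diverging and 2.14 in converging layout.

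The 2 layouts were also compared within each library. From 1 to 3 kb, diverging over converging minor reads was 1.83 and 1.80 in Pcf11-IPAKO, against 0.983 and 0.960 in controls. The groups did not overlap (1.82 ± 0.0214 with the deletion, 0.971 ± 0.0166 without; SD, 2 libraries each; exact permutation p = 0.333, the smallest possible). With strong sites defined from the controls alone, the same ratio was 0.799 in Pcf11-IPAKO and 0.493 in controls, and after thinning to equal depth it was 1.99 in Pcf11-IPAKO and 1.06 in controls. The ratio of Pcf11-IPAKO to control for diverging minor reads also differed with the level of the site group they faced. In the 5 kb before the first site of a group, opposite-strand minor reads were 5.27 times as frequent in Pcf11-IPAKO as in controls for the 3936 groups with the lowest level (median 1.05 CPM), and 3.56 times for the 3936 with the highest (median 92.1 CPM). In the 5 kb beyond the last site the ratio was 3.31 in the lowest set and 2.25 in the highest. A group of low level can reach the strong-site minimum through the 2 Pcf11-IPAKO libraries alone, so these ratios by level are a description.

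**Figure D2:**
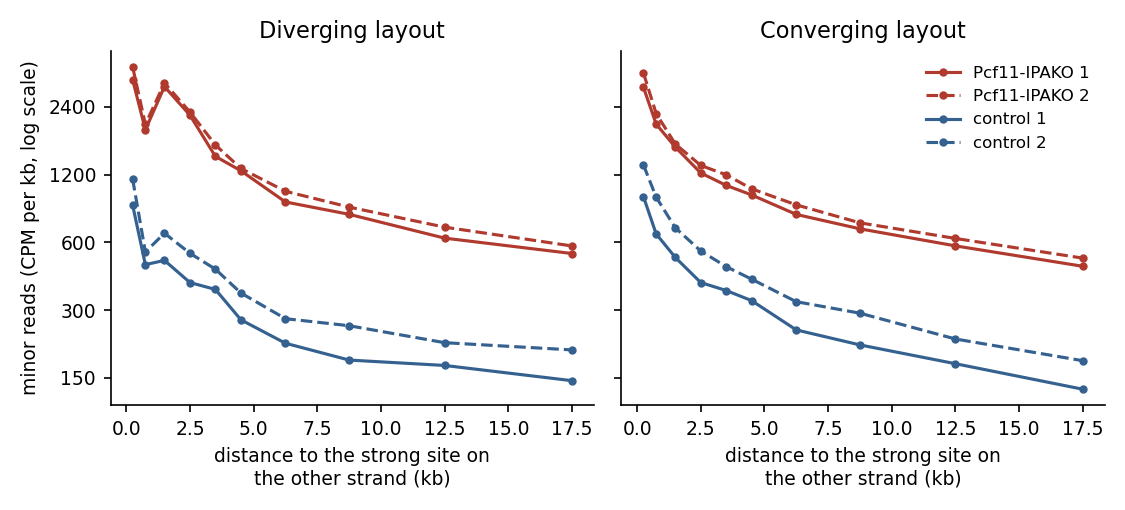
Minor reads in 4T1 (CPM per kb, log axis) against distance in kb to the nearest strong site on the other strand, for diverging (left) and converging (right) layouts; each line is 1 library. The 2 Pcf11-IPAKO lines lie above the 2 control lines at every distance, and the diverging panel has a peak at 1 to 2 kb (3004 CPM on average in Pcf11-IPAKO and 579 CPM in controls). The peak was absent with strong sites defined from the controls alone (not drawn).

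Windows of minor reads were also tested one site group at a time (edgeR quasi-likelihood test with Benjamini-Hochberg adjustment, threshold 0.05). Most windows that passed the low-count filter did so through the Pcf11-IPAKO libraries, where reads are more frequent, so the counts below are a description and add no support. Downstream windows were higher in 451 of 508 tested groups (88.8%) and lower in 0, with 454 at an unadjusted p under 0.05 (DESeq2 called 314 higher and 0 lower). Without Pcf11-IPAKO replicate 1 it was 56, and without Pcf11-IPAKO replicate 2 it was 103. Windows inside and upstream of groups were higher in 694 of 1018 (68.2%) and lower in 2, and 352 or 285 were called without Pcf11-IPAKO replicate 1 or 2. Set against the reads at the strong sites of the same group, 24 of 282 downstream windows (8.51%) and 111 of 826 inside and upstream windows (13.4%) were higher, and 2 of the inside and upstream windows were lower. With any single library left out these relative counts were 0 to 10 and 0 to 23 (edgeR, 21 to 151 and 81 to 260 at an unadjusted p under 0.05). The window downstream of a site on chromosome X, minus strand, at 71518557 held 7 and 19 reads in Pcf11-IPAKO and no read in either control, while the strong site itself held 15 and 33 reads in Pcf11-IPAKO and 14 and 34 in controls. Inside and upstream of the group on chromosome 2, plus strand, 166888554 to 166892744, minor reads numbered 17 and 26 in Pcf11-IPAKO, against 2 and 7 in controls (relative test, adjusted p = 1.55e-05). The strong sites of that group went the other way, with 157 and 322 reads in Pcf11-IPAKO against 773 and 947 in controls.

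Far from control-defined strong sites, reads were more frequent in Pcf11-IPAKO in most regions and densest in some. Of 5708 bins of 100 kb with at least 20 such reads, 95.4% were higher in Pcf11-IPAKO, with a median ratio of 3.85. Reads of Pcf11-IPAKO help a bin to reach 20, so this too is a description. In 100 kb bins, the top 1% of bins (178 of 17815) by Pcf11-IPAKO reads held 15.8% of such reads in Pcf11-IPAKO, while the top 1% by control reads held 10.7% of them in controls. Controls had 8.75% of these reads in the bins picked from Pcf11-IPAKO. The bin at 71.0 to 71.1 Mb of chromosome 17 was the highest in Pcf11-IPAKO, with 166 and 151 CPM in Pcf11-IPAKO against 8.13 and 19.2 CPM in controls. A stretch of chromosome 4 from 88.5 to 88.8 Mb filled 3 of the next 5 places. Its bins had means of 127, 155 and 156 CPM in Pcf11-IPAKO, against 9.25, 21.3 and 13.4 CPM in controls. Reads in these 3 bins fell on both strands, with 47.4% to 51.8% on the plus strand in Pcf11-IPAKO. Of the 178 bins, 151 had between 20% and 80% of their Pcf11-IPAKO reads on the plus strand. The bin at 87.2 to 87.3 Mb of chromosome 11 differed from these, with 97.9% of Pcf11-IPAKO reads on the plus strand and 156 and 114 CPM in Pcf11-IPAKO against 9.93 and 13.6 CPM in controls. The top bins were chosen by their Pcf11-IPAKO values and are a description.

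Levels of site groups, the summed reads at their strong sites (in CPM after TMM scaling of the libraries), changed in both directions but mostly upward. Of 10420 groups tested, 361 (3.46%) were higher and 55 (0.528%) lower in Pcf11-IPAKO (edgeR quasi-likelihood test, adjusted p under 0.05), and 1599 had an unadjusted p under 0.05. The median log2 fold change of all tested groups was -0.04, and library values did not overlap between the 2 groups of libraries in 45.4% of tested groups. Calls upward concentrated among weak groups. Below 8 CPM on average 160 of 2631 groups were higher (6.08%) and 10 lower, and at 128 CPM or more 13 of 1478 were higher (0.880%) and 12 lower. Of the 361 higher groups, 276 had a control mean under 5 CPM, as did 1712 of all tested groups. Such groups can pass the low-count filter through the group in which they are high, so their number is a description. Among the 8708 groups with a control mean of 5 CPM or more, 85 were higher and 55 lower. With strong sites defined from the controls alone, 86 were higher and 28 lower of 9559. The number called ran from 308 to 515 with single libraries left out, and the number lower from 45 to 134, with 134 when Pcf11-IPAKO replicate 2 and 116 when control replicate 1 was left out.

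Groups with many sites were called higher at a larger rate than groups with 1 site. Of 107 tested groups with 10 or more strong sites, 30 were higher (28.0%) and 2 lower, against 82 higher of 4363 single-site groups (1.88%). Because a higher level in the 2 Pcf11-IPAKO libraries itself adds strong sites, this is a description. With sites counted from the controls alone, 0 of 20 groups with 10 or more were higher by edgeR (4 at an unadjusted p under 0.05), against 58 of 5473 single-site groups (1.06%). In 25 higher groups no control read was found, and 21 to 66 reads were found in Pcf11-IPAKO. In 3 lower groups no Pcf11-IPAKO read was found. The most abundant higher group was a run of 26 strong sites on chromosome 11, plus strand, 87256963 to 87262879. It had 1139 and 796 CPM in Pcf11-IPAKO, against 110 and 84.8 CPM in controls (log2 fold change 3.31 ± 0.328 SE, adjusted p = 0.00228). A run of 20 sites on chromosome 5, plus strand, 91187818 to 91190651, had 848 and 534 CPM in Pcf11-IPAKO, against 98.0 and 79.9 CPM in controls (log2 fold change 2.96 ± 0.330 SE, adjusted p = 0.00228). In both runs the lower Pcf11-IPAKO library stood far above the higher control.

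Among called groups of at least 10 CPM on average, the 8 with the largest log2 fold changes upward were on chromosomes 1, 3, 5, 9, 12, 15 and 17, at 4.24 to 5.24. Their controls held 0 to 10 reads each, so they passed the low-count filter through Pcf11-IPAKO, and their values are given as a description. The group on chromosome 3, plus strand, 96132516 to 96133104, had 9 sites and 70.0 and 31.0 CPM in Pcf11-IPAKO, against 0.458 and 1.79 CPM in controls. The group on chromosome 17, plus strand, 71097003 to 71105216, had 16 sites. It began in the bin with the most Pcf11-IPAKO reads far from control-defined strong sites, a count that can include reads of this group itself. Its level was 47.8 and 39.3 CPM in Pcf11-IPAKO, against 2.29 and 1.54 CPM in controls. Some groups of 1 or 2 sites rose as well. The site on chromosome 14, plus strand, at 21662609 had 477 and 596 CPM in Pcf11-IPAKO, against 256 and 161 CPM in controls (log2 fold change 1.37 ± 0.313 SE, adjusted p = 0.0384), and it lost its call when Pcf11-IPAKO replicate 2 (adjusted p = 0.063) or control replicate 2 (adjusted p = 0.164) was left out. The group on chromosome 19, plus strand, 31161086 to 31161481, had 383 and 457 CPM in Pcf11-IPAKO, against 144 and 141 CPM in controls (log2 fold change 1.56 ± 0.271 SE, adjusted p = 0.013).

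Lower groups were fewer. Among those of at least 10 CPM on average, the 8 with the largest falls had 1 or 2 sites each, and some weaker groups had larger fitted falls. The site on chromosome 4, minus strand, at 15846074 held 0 and 1 read in Pcf11-IPAKO, against 61 and 90 reads in controls. With 1 read in all, the ratio of control to Pcf11-IPAKO was 146 with a 95% exact counting interval of 25.8 to 5813 (adjusted p = 0.00228). The group on chromosome 17, plus strand, 35693859 to 35694125, had 1.11 and 5.62 CPM in Pcf11-IPAKO, against 97.1 and 53.8 CPM in controls (adjusted p = 0.00334). On chromosome 9, minus strand, 20678252 to 20678346, levels were 3.34 and 10.7 CPM in Pcf11-IPAKO, against 93.0 and 121 CPM in controls (adjusted p = 0.00261). The other 5 of these 8 had log2 fold changes of -3.45 to -2.61. The most abundant lower group, on chromosome 1, plus strand, 162965882 to 162968670, had 2569 and 4836 CPM in Pcf11-IPAKO, against 11048 and 13447 CPM in controls. Its log2 fold change was -1.73 ± 0.397 SE (adjusted p = 0.0393), and it lost the call without Pcf11-IPAKO replicate 1 (adjusted p = 0.117). A pair of other abundant groups fell by about the same factor. On chromosome 11, plus strand, 62418108 to 62418399, it was 536 and 679 CPM in Pcf11-IPAKO, against 2104 and 2787 CPM in controls (log2 fold change -2.01, adjusted p = 0.00837). On chromosome 19, plus strand, 8798556 to 8800933, it was 298 and 467 CPM in Pcf11-IPAKO, against 1534 and 1556 CPM in controls (log2 fold change -2.01, adjusted p = 0.00864).

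**Figure D3:**
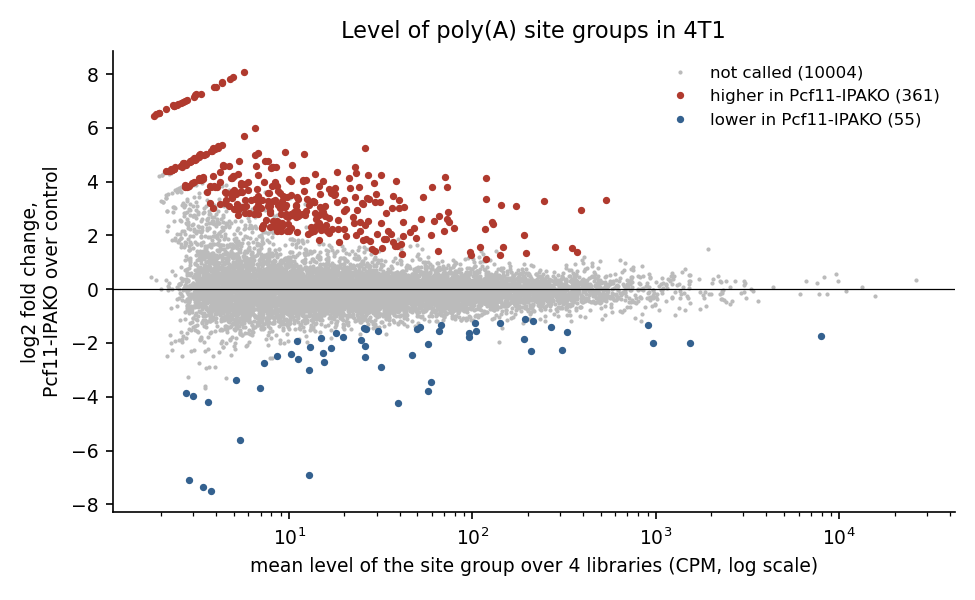
Log2 fold change of Pcf11-IPAKO over control against the mean level of each tested site group (CPM, log axis); red points are the 361 groups called higher, blue points the 55 called lower and grey points the rest; folds of groups with no reads in one group of libraries depend on the prior count of the fit. Red points crowd at low levels, where 160 of the 2631 groups under 8 CPM were higher, and red and blue are about equally frequent at 128 CPM or more (13 higher and 12 lower).

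With strong sites taken from all 4 libraries, upward calls were more frequent among groups near a diverging strong site. A group or its neighbour can reach the strong-site minimum through the 2 Pcf11-IPAKO libraries alone, so these counts are a description. Of 141 tested groups whose first site lay 1 to 2 kb from a diverging strong site, 39 were higher (27.7%) and 1 lower, with a median log2 fold change of 1.09. Groups 1 to 2 kb from a converging strong site had 4 higher of 373 (1.07%), with a median of -0.09. On chromosome 3, the plus-strand group that begins at 96025670 had 172 and 89.1 CPM in Pcf11-IPAKO, against 28.8 and 24.8 CPM in controls. The minus-strand group that begins 1919 nt away at 96023751 had 19.5 and 11.7 CPM in Pcf11-IPAKO, against 2.29 and 3.07 CPM in controls (log2 fold changes 2.28 and 2.46, adjusted p = 0.0103 and 0.0314). In 56 pairs of tested groups, the first site of at least 1 group lay 1 to 2 kb from a diverging strong site of the other. Both members were higher in 8 of these pairs and 1 member in 14. In most of the 8 pairs the 2 groups overlapped, so their first sites did not diverge. On chromosome 9, for example, the first plus-strand site at 41386905 lay left of the first minus-strand site at 41388571. This higher rate was not found with strong sites defined from the controls alone. Of 43 such groups, 0 were then higher by edgeR, with 9 at an unadjusted p under 0.05. Of all 9559 groups, 86 were higher, with 1053 at an unadjusted p under 0.05. The median log2 fold change was 0.003 in the 43 groups, against -0.002 in all 9559. With a control mean of at least 5 CPM, 8 of 75 were higher (10.7%), against 85 of 8708 in all. There the neighbouring strong site could still be set by Pcf11-IPAKO.

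Levels of the same positions in other cells set the higher groups apart. NIH3T3 (embryonic fibroblasts) and C2C12 (myoblasts) libraries of the series, 4 of each cell line and all from total RNA, were read within 30 nt of each strong site. For each line, 2 of these libraries were siPcf11 and 2 control, so they do not stand for untreated cells alone. The C2C12 libraries were those titled input. Of the 361 higher groups, 253 (70.1%) had under 1 CPM in both lines, against 1074 of all 10420 tested groups (10.3%) and 5 of the 55 lower groups (9.09%). With a control mean of at least 5 CPM in 4T1, the shares were 27.1% of 85 higher groups and 4.36% of 8708 tested groups. Read the other way, 23 of the 380 groups silent in both lines by this measure were higher (6.05%) at that control level, against 62 of the other 8328 (0.744%). The same held for single sites. Strong sites with no read in the 8 libraries of the other lines took 2.20% and 2.13% of reads in Pcf11-IPAKO, against 1.08% and 1.17% in controls. Counting the 755 of them that were strong in both controls, they took 1.13% and 1.16% in Pcf11-IPAKO, against 0.913% and 0.960% in controls. Strong sites with 10 or more reads in the other lines took 89.3% and 88.4% in Pcf11-IPAKO, against 94.9% and 94.1% in controls.

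Levels on a few chromosomes lay apart from the rest. Tested groups on chromosome 8 had a median log2 fold change of -0.29, with 28.5% of 551 groups above 0, and those on chromosome 17 had -0.29, with 29.6% of 511 above 0. The median was 0.18 on chromosome 16, where 64.0% of 342 groups were above 0. On the other autosomes and the X chromosome it lay between -0.15 and 0.07. Relative to the control mean, the median group of chromosome 8 was at -0.27 and -0.27 in the 2 Pcf11-IPAKO libraries, against -0.04 and 0.04 in the 2 controls. For chromosome 17 the values were -0.34 and -0.21 in Pcf11-IPAKO, against -0.02 and 0.02 in controls. As a share of all reads, chromosome 8 took 4.84% and 5.03% in Pcf11-IPAKO, against 5.65% and 5.89% in controls (exact permutation p = 0.333, the smallest possible). For chromosome 17 this share overlapped between groups, with 5.19% and 5.52% in Pcf11-IPAKO, against 5.47% and 5.86% in controls (exact p = 0.667). Copy number of these chromosomes in either line was not tested. Reads from the mitochondrial minus strand took 0.408% and 0.153% in Pcf11-IPAKO, against 0.148% and 0.0577% in controls, which barely separated. Plus-strand mitochondrial reads overlapped, with 1.33% and 0.794% in Pcf11-IPAKO, against 0.971% and 0.804% in controls.

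Within site groups, the more distal of the main sites was used less on average in Pcf11-IPAKO. For the 2 most used sites of each group, mean distal use was 50.3% and 51.4% in Pcf11-IPAKO, against 53.7% and 54.6% in controls, over 3542 pairs with at least 10 reads in every library. Over libraries this was 50.8% ± 0.751 in Pcf11-IPAKO, against 54.2% ± 0.641 in controls (SD, 2 libraries each; exact permutation p = 0.333, the smallest possible), a difference of -3.32 percentage points. Both Pcf11-IPAKO libraries were below both controls in 993 pairs (28.0%) and above both in 300 pairs (8.47%). The difference was present at each separation of the 2 sites. It was -2.33 points in the 940 pairs under 200 nt apart, -3.49 at 200 to 500 nt, -2.70 at 500 to 1000 nt, -4.34 at 1 to 2 kb and -3.93 in the 773 pairs at least 2 kb apart.

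The direction was opposite to that of the siPcf11 experiments in the same series. At 909 pairs with identical positions in 4T1, NIH3T3 and C2C12, distal use was 45.2% and 46.0% in Pcf11-IPAKO 4T1, against 49.0% and 49.5% in 4T1 controls. In NIH3T3 it was 54.9% and 56.0% with siPcf11, against 51.1% and 51.3% in controls. In C2C12 it was 55.6% and 56.5% with siPcf11, against 51.7% and 52.2% in controls. The change in 4T1 minus the change in NIH3T3 was -7.89 percentage points, and minus that in C2C12 -7.76 points (exact two-sided permutation within each line, p = 0.0556 for each, the smallest that 36 arrangements can give). Reads outside strong sites differed in the same manner. They took 1.79% and 1.90% with siPcf11 in NIH3T3, against 2.14% and 2.22% in its controls, and 1.84% and 1.87% with siPcf11 in C2C12, against 2.36% and 2.34% in its controls (difference from the 4T1 change, exact p = 0.0556 for each line). Diverging over converging minor reads were 0.512 and 0.550 with siPcf11 in NIH3T3, against 0.467 and 0.473 in its controls. In C2C12 they were 0.523 and 0.573 with siPcf11, against 0.425 and 0.424 in its controls. The change in 4T1 was larger by 0.786 than in NIH3T3 and by 0.725 than in C2C12, but other arrangements of the libraries gave differences as large (exact p = 0.333 for each). Cell line, genotype and siRNA differ at once between these experiments and cannot be told apart.

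**Figure D4:**
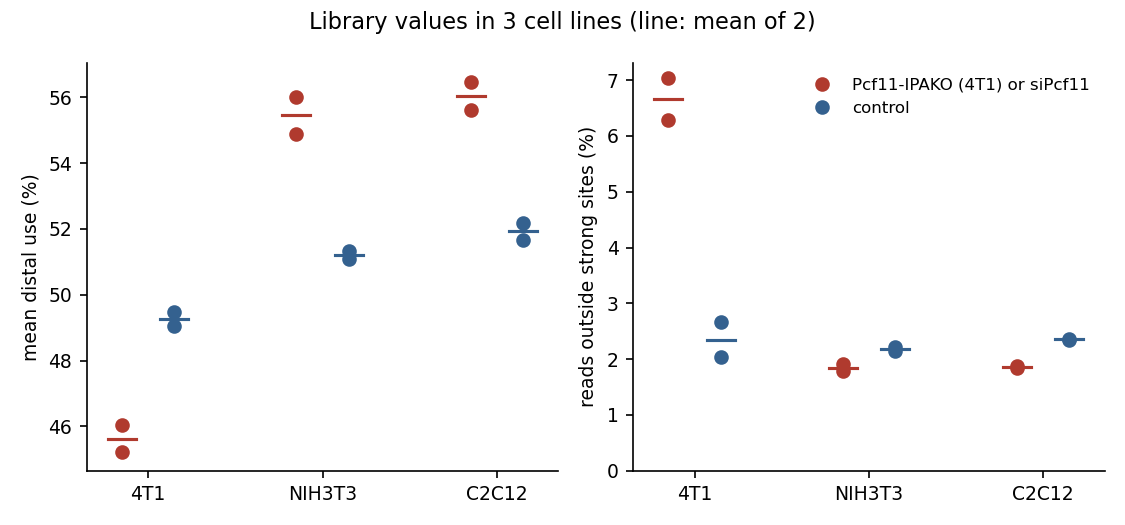
Mean distal use over 909 pairs with identical positions (%, left; the axis does not start at 0) and reads outside strong sites (%, right) in 3 cell lines; points are libraries, Pcf11-IPAKO or siPcf11 left of control, and lines are means of 2. Distal use is below control in 4T1 (45.6% in Pcf11-IPAKO and 49.3% in controls) and above it in both siPcf11 lines, and the 2 Pcf11-IPAKO libraries alone exceed 3% outside strong sites.

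At single pairs, 17 of 4769 tested passed the threshold (edgeR quasi-likelihood interaction test, adjusted p under 0.05). In 13 use moved to the proximal site (0.273%) and in 4 to the distal site (0.0839%). A site could reach the strong-site minimum through the 2 Pcf11-IPAKO libraries alone, here and in the tests of most 5′ and single sites below. With strong sites defined from the controls alone, 14 of the 17 pairs could be fitted, and these 14 kept their call. Leaving out one library ended nearly all of these calls, with 0 left without Pcf11-IPAKO replicate 1 (129 at an unadjusted p under 0.05), 1 without Pcf11-IPAKO replicate 2, 0 without control replicate 1 (203) and 4 without control replicate 2. On chromosome 4, plus strand, the sites at 131865752 and 131866939 had a distal use of 68.8% and 79.2% in Pcf11-IPAKO, against 99.0% and 99.1% in controls (adjusted p = 0.000236). This group also fell in level, to 147 and 181 CPM in Pcf11-IPAKO, against 510 and 471 CPM in controls (log2 fold change -1.58 ± 0.275 SE, adjusted p = 0.0131). The pair on chromosome 3, minus strand, at 153573853 and 153570267 had a distal use of 10.5% and 22.8% in Pcf11-IPAKO, against 79.7% and 75.9% in controls (adjusted p = 0.00384). The pair on chromosome 2, minus strand, at 26493612 and 26492696 had 8.54% and 18.0% in Pcf11-IPAKO, against 79.2% and 70.1% in controls (adjusted p = 0.00384). These were the largest changes, at -61.2 and -61.4 percentage points.

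On chromosome 12, plus strand, the pair at 17553901 and 17557900 had a distal use of 30.6% and 33.3% in Pcf11-IPAKO, against 85.4% and 81.7% in controls (adjusted p = 0.00384). On chromosome 9, plus strand, the pair at 120039235 and 120040691 had 45.5% and 47.9% in Pcf11-IPAKO, against 94.9% and 90.4% in controls (adjusted p = 0.00384). The other 8 pairs that moved to the proximal site lay on chromosomes 4, 7, 8, 10 and 11 and lost 12.8 to 47.4 percentage points of distal use. Of the 4 that moved to the distal site, the pair on chromosome 11, minus strand, at 69486617 and 69482748 had a distal use of 54.2% and 63.5% in Pcf11-IPAKO, against 7.52% and 16.8% in controls (adjusted p = 0.00384). On chromosome 6, minus strand, the pair at 124670735 and 124668405 had 64.4% and 62.1% in Pcf11-IPAKO, against 10.5% and 12.8% in controls (adjusted p = 0.0108). The pair on chromosome 1, plus strand, at 145626200 and 145631095 held 7 and 17 distal beside 8 and 60 proximal reads in Pcf11-IPAKO, against no distal beside 48 and 154 proximal reads in controls (adjusted p = 0.0302). Its distal site was a strong site through Pcf11-IPAKO alone, so its values are a description. The last of the 4 lay on chromosome 9, plus strand, at 108467908 and 108470655, with 10.7% and 11.6% in Pcf11-IPAKO, against 1.94% and 1.08% in controls (adjusted p = 0.0287).

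The site that gained use in these 17 pairs was nearly absent from the other cell lines. In the 8 NIH3T3 and C2C12 libraries together, 11 of the 17 gained sites had no read within 30 nt, and the other 6 had 1 to 4 reads. Their partner sites had 100 to 13423 reads in the same libraries. The gained site thus took under 1% of the pair in the other lines at 17 of 17 called pairs, while this was so for 143 of 3529 tested pairs (4.05%) whose partner had at least 40 reads there. The called pairs were picked for a large gain, and the tested pairs were not matched to them for use of the gained site in 4T1 controls. These shares are therefore a description. In 4T1 controls each gained site had reads in both libraries, except on chromosome 1 (none) and at 74719393 on chromosome 11 (0 and 1 read). These exceptions were strong sites through Pcf11-IPAKO alone. The partner at 131866939 on chromosome 4, for example, had 3324 reads in NIH3T3 and C2C12 and the gained site at 131865752 none, while in 4T1 the gained site held 74 and 141 reads in Pcf11-IPAKO and 11 and 16 in controls. The partner at 120040691 on chromosome 9 had 5263 reads in the other lines and the gained site at 120039235 none, with 127 and 214 reads there in Pcf11-IPAKO and 9 and 22 in controls. Sequence differences of 4T1 at these sites were not tested.

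**Figure D5:**
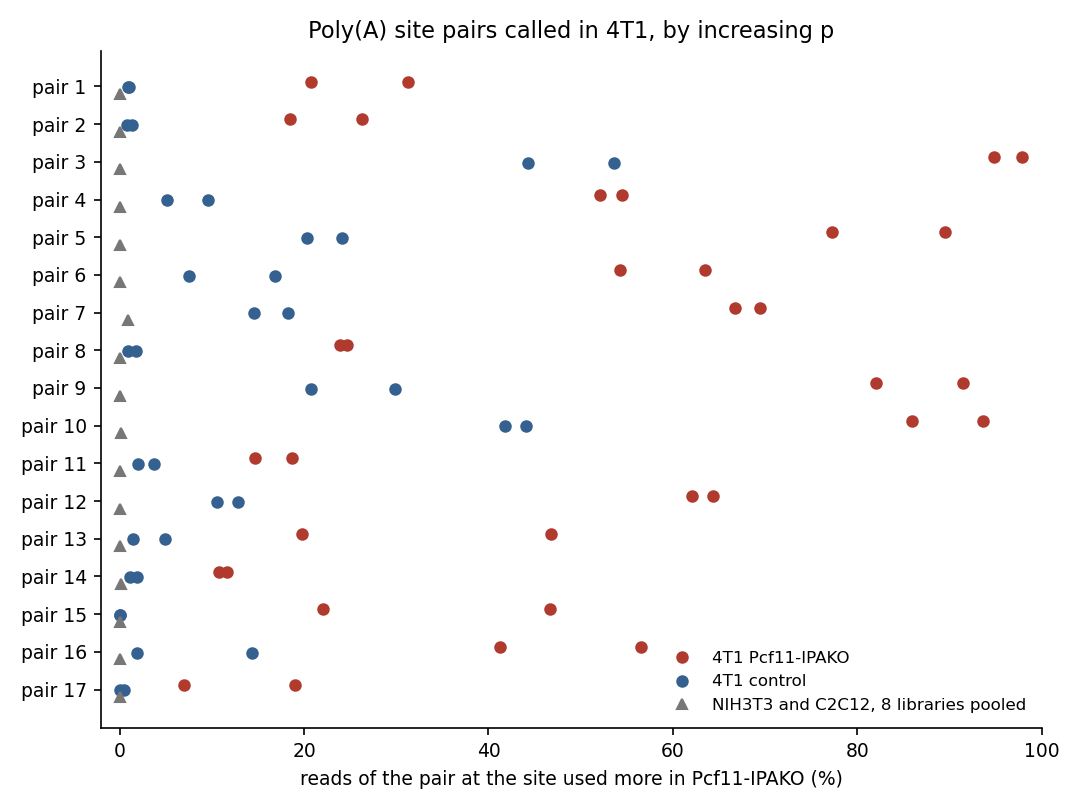
Share of the pair's reads at the site used more in Pcf11-IPAKO (%), for the 17 called pairs from the lowest p (pair 1) to the highest; circles are single 4T1 libraries, Pcf11-IPAKO drawn above control, and triangles the 8 NIH3T3 and C2C12 libraries pooled. Red circles lie right of blue circles in all 17 pairs, and every triangle lies under 1%.

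Early sites, which include intronic ones, were approached through the used site that lies most 5′ in its group, set against all other used sites (those with at least 5% of the group's reads). The most 5′ used site gained use in 11 of 4867 groups (0.226%) and lost use in 1 (0.0205%). All but 3 of these 12 were groups already called as pairs. With single libraries left out the calls numbered 1 without Pcf11-IPAKO replicate 1, 6 without Pcf11-IPAKO replicate 2, 0 without control replicate 1 (edgeR, 233 at an unadjusted p under 0.05) and 3 without control replicate 2. Of the 3 not called as pairs, the group on chromosome 9, plus strand, with its most 5′ site at 64023898, had 55.9% and 40.8% of its reads beyond that site in Pcf11-IPAKO, against 90.3% and 85.8% in controls (adjusted p = 0.042). For the group on chromosome 7, plus strand, with its most 5′ site at 116663981, the share beyond it was 89.5% and 89.5% in Pcf11-IPAKO, against 98.5% and 98.2% in controls (adjusted p = 0.0278). The group on chromosome 8, plus strand, at 13877797 is also among the called pairs, with 6.41% and 14.1% beyond the most 5′ site in Pcf11-IPAKO, against 58.2% and 55.9% in controls (adjusted p = 0.0148).

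Tested singly within their groups, 38 of 8430 sites were used more (0.451%) and 10 less (0.119%) in Pcf11-IPAKO, in 39 groups (edgeR, adjusted p under 0.05). Of the 38 sites used more, 36 were not the last site of their group. Of the 10 used less, 7 were not the first and 5 were the last. The 8430 tested sites lay in 3088 groups, so most were not last and most were not first, whatever their change. The counts by place in the group are therefore a description. With strong sites defined from the controls alone, 25 of 7688 sites were used more and 8 less. With single libraries left out, 14 to 36 sites were called, with 14 when control replicate 1 was left out and 29 when either Pcf11-IPAKO replicate 1 or control replicate 2 was. The third site of 6 on chromosome 3, minus strand, at 153573853 took 75.9% and 59.1% of its group in Pcf11-IPAKO, against 13.2% and 16.1% in controls (adjusted p = 0.0343). The second site of 9 on chromosome 10, minus strand, at 23505811 took 38.3% and 54.5% in Pcf11-IPAKO, against 1.69% and 12.3% in controls (adjusted p = 0.00988). Among sites used less, the first of 36 sites on chromosome 11, plus strand, at 106362525 took 15.9% and 16.1% in Pcf11-IPAKO, against 63.8% and 37.1% in controls (adjusted p = 0.0417). The first of 17 sites on chromosome 13, plus strand, at 90238721 took 4.49% and 11.5% in Pcf11-IPAKO, against 24.0% and 49.1% in controls (adjusted p = 0.0242).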

How the data were processed

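3′READS libraries of 4T1 cells (Pcf11-IPAKO and control, 2 each) were analysed, with the NIH3T3 and C2C12 total RNA libraries of siPcf11 and control (2 each) for comparison. The authors deposited 1 table per library with chromosome, strand, position and the whole-number read count of each poly(A) position, in mm9 per the submitters' processing notes, which name cutadapt, Bowtie2 and STAR with no version given. Whether PCR duplicates were removed is not given in the sources used here, so counting intervals cover counting error only. The amount of input RNA, which set the number of PCR cycles per the labels' protocols, is not given per library.

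Strong sites had at least 1 CPM in at least 2 libraries and were chained over gaps of at most 5 kb. A used site held at least 5% of its group. Counts that passed filterByExpr (minimum count 10) were scaled by TMM and tested without a replicate block in edgeR 4.0.16, run under R 4.3.3 beside limma 3.58.1. Relative use was tested as an interaction with the library as a factor, and single sites with diffSpliceDGE. A standard error is the size of the log2 fold change divided by the square root of F. Alternatives were library totals, DESeq2 1.42.0 (size factors and its Wald test), no filter, gaps of 2 and 10 kb, a 3 CPM minimum, thinning, 12 libraries for the spread, the replicate block and each library left out. Strong sites from controls only (for the count tests), the 5 CPM control minimum, the layout of strands, the number of sites counted from controls, the 100 kb bins and the reads at 4T1 sites in other lines were added after the data were seen. Libraries of one group differed by more than counting noise (chi-square per degree of freedom 12.8 for Pcf11-IPAKO and 14.6 for controls), so no library was treated as a repeat deposit, though this does not show that they came from separate cultures. Scripts were tested on simulated counts. Sums and permutation tests used pandas 2.3.3, scipy 1.17.1 and numpy 2.4.6 under Python 3.11.15, and matplotlib 3.10.9 drew the plots.

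Named by rule were: called groups of at least 10 CPM without overlap, the 8 largest changes in each direction; the 5 most abundant of the remaining called groups in each direction; called pairs and most 5′ sites; the 8 single sites with the largest change in each direction; and the 6 windows with the smallest p in each direction. The text gives examples of each set. The comparison, rules and tests were chosen with earlier results of these data known.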

Additional observations from a re-analysis of the deposited data

How the results depend on the processing

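The difference in mean distal use stayed between -3.85 and -2.79 percentage points with single libraries left out, and the differences from the siPcf11 lines kept their direction and size with all pairs of each line and with pairs of at least 50 reads. The share of reads outside strong sites exceeded controls by 3.94 to 4.70 percentage points with single libraries left out, by 4.95 points with a 3 CPM minimum and by 5.76 points with strong sites from controls only. The difference in diverging over converging minor reads was 0.832 to 0.863 with libraries left out, 0.483 with a 3 CPM minimum, 0.928 after thinning and 0.306 with strong sites from controls only. The median ratio over chromosome strands was 2.50 to 3.27 with libraries left out and 2.23 with a 3 CPM minimum.

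Called levels numbered 234 with a 3 CPM minimum (200 higher, 34 lower), 114 with strong sites from controls only, 140 with a control mean of at least 5 CPM and 308 to 515 with libraries left out. Called single sites numbered 30 with a 2 kb gap and 14 to 36 with libraries left out. Called pairs numbered 10 with a 2 kb gap, 31 with a 10 kb gap and 0 to 4 with libraries left out. Called most 5′ sites numbered 32 with a 10 kb gap, 20 with strong sites from controls only and 0 to 6 with libraries left out. Downstream windows numbered 159 after thinning, 169 with strong sites from controls only and 56 to 545 with libraries left out, and relative to strong sites 0 with no filter (245 at an unadjusted p under 0.05), 0 with a 3 CPM minimum (129), 8 after thinning, 2 with strong sites from controls only and 0 to 10 with libraries left out. Inside and upstream windows numbered 395 with a 3 CPM minimum, 437 after thinning, 229 with strong sites from controls only and 285 to 554 with libraries left out, and relative to strong sites 0 with no filter (447), 57 and 225 with gaps of 2 and 10 kb, 0 after thinning (127), 5 with strong sites from controls only and 0 to 23 with libraries left out. The cause of these moves was not tested.

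Only 2 numbers are shared between the groups, and the labels do not say what they mark. The deviations of same-numbered libraries from their group means correlated with r = 0.45 across site groups. With the replicate block, 1619 levels (931 higher, 688 lower), 132 single sites, 81 pairs, 77 most 5′ sites and 2 relative downstream windows were called. Of the named items, 20 of 26 levels kept their call in every setting in which they could be fitted, and 0 of 17 pairs, 0 of 12 most 5′ sites and 0 of 16 single sites did, as each lost it with at least 1 library left out or another setting. None changed direction. A group left with 1 library was assumed to vary like the other. The spread from 12 libraries was not run for windows.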
